A study of Glycine max with 12 samples.

Results

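The genes described here were the heat shock factors (HSFs) and the HSP20 proteins of soybean, measured by RNA-seq in root tips. Members were the annotated genes whose description in the deposited count matrix carried the HSF-type DNA-binding domain (Pfam PF00447) or the Hsp20/alpha crystallin domain (Pfam PF00011). The rule gave 128 genes, 52 HSFs and 76 HSP20s, of 52872 annotated genes, and 2 of the HSP20s also carried an ARID domain. The study asked how seedlings respond to an excess and to a lack of brassinosteroids. The libraries were made from root tips (1 cm) of seedlings that spent 3 days in vermiculite and then 5 days in nutrient solution before PPZ, or 7 days before BL, with 3 libraries in each of 4 groups. PPZ plus BL seedlings received 0.1 μM propiconazole (PPZ, an inhibitor of brassinosteroid synthesis) and 0.01 nM brassinolide (BL, an active brassinosteroid), PPZ seedlings received 0.1 μM PPZ for 2.5 days, BL seedlings received 0.01 nM BL for 0.5 days, and mock seedlings received neither. All groups shared the labelled cultivar Wm82, age at harvest (the days of culture and treatment added up), medium and tissue. The series description places 2 days of PPZ before 0.5 days of BL in the combined group, whereas the sample label gives the reverse order. The labels do not say whether mock was matched to 0.5 or 2.5 days, the design text names both eBL and BL, and the study's methods name another genotype, YC03-3. Treatment and its duration therefore cannot be told apart in the comparisons with mock, nor between PPZ and BL, and PPZ plus BL and PPZ also differed in days of PPZ. The study's methods call the PPZ, BL and mock libraries biological replicates and do not mention the PPZ plus BL libraries. The number of plants behind each was not stated, so p-values measure the spread between these libraries.

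In plants, HSFs are transcription factors that bind heat shock elements in promoters through the conserved domain used by the rule. Class A members activate transcription, and class B members lack the activation motif and often repress. Their best known targets are the HSP20s, small heat shock proteins that hold unfolding proteins in a soluble state without using ATP, until HSP70, HSP90 and HSP100 machines or chaperonins refold them. Many HSP20s are nearly silent without stress, while others are expressed during development. The files give no class for single HSFs, so none is given below.

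Total counts per library lay between 18450894 and 24815541. Levels are given as the deposited FPKM, which divide counts by gene length and a library constant and so can be compared between genes. Correlations of log counts between libraries of a group lay between 0.956 and 0.992, and mock library 1 was the least like the others of its group, at 0.968 and 0.956. The tissue label was set against marker families. All 9 root cap genes were detected, and their summed FPKM was 131.75 to 176.34 in PPZ plus BL, 117.28 to 146.9 in PPZ, 325.77 to 354.46 in BL and 65.36 to 93.25 in mock. Casparian strip genes stood for endodermis. Chlorophyll a/b binding and Rubisco small subunit genes stood for green shoot and globins for nodule, tissues that a root tip should lack. Of 80 Casparian strip genes 11 were at 0 in all libraries, as was 1 of 39 chlorophyll a/b binding genes, 1 of 6 Rubisco small subunit genes and 3 of 7 globins. Most genes of each list were thus detected, so these lists did not show the absence of shoot or nodule tissue, and the reason was not tested. The groups therefore differed in marker genes of several tissues, and in bulk root tips fewer cells of a type and less RNA per cell cannot be told apart.

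The 2 families differed in level and in layout. The 52 HSFs lay on 18 chromosomes, none within 50 kb of another HSF, and their median FPKM over the 12 libraries was 4.38. Of these, 41 had a mean FPKM of at least 1 and 9 of at least 10. The highest were Glyma.17G174900 (HSF-35, 31.4 FPKM, chr17:18350321-18354161), Glyma.16G196200 (HSF-32, 26.1 FPKM), Glyma.19G137800 (HSF-36, 21.9 FPKM), Glyma.01G185800 (18.8 FPKM) and Glyma.01G233000 (HSF-04, 11.8 FPKM). The 76 HSP20s lay on 20 chromosomes and had a median of 1.07 FPKM. Of these, 40 reached a mean of 1, 7 reached 10, and 3 had no count in any library. The highest was Glyma.12G013100 (HSP23.9, 51.4 FPKM, chr12:941481-942839), followed by Glyma.13G176300 (22.8 FPKM), Glyma.11G134200 (22.6 FPKM), Glyma.13G286300 (19.1 FPKM) and Glyma.12G058200 (17.1 FPKM). Unlike the HSFs, 22 HSP20s stood in 7 groups of neighbours, the largest with 6 genes over 39.1 kb of chromosome 7 and the next with 5 genes over 31.4 kb of chromosome 13. Such neighbours can be near copies of each other, and how reads were divided between them was not stated, so the split of counts within a group is uncertain.

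The summed level of the HSFs stood out in PPZ. It was 279.67, 252.96 and 255.57 FPKM in the 3 PPZ plus BL libraries, 436.57, 378.55 and 440.78 in PPZ, 227.26, 271.29 and 253.22 in BL, and 251.35, 302.76 and 308.79 in mock. Every PPZ library lay above all others, and the remaining groups overlapped. The mean HSF sum in PPZ was 1.455 times that in mock and 1.671 times that in BL. The summed FPKM of all annotated genes was also higher in PPZ, at 1.133 and 1.108 times. For PPZ plus BL against PPZ the ratio was 0.628 for HSFs, beside 0.871 for all annotated genes. The exact two-sided permutation p was 0.1 for PPZ against mock, for PPZ plus BL against PPZ and for PPZ against BL, the smallest that 3 against 3 libraries allow. The summed level of the HSP20s was instead highest in mock, at 202.55, 235.19 and 243.17 FPKM in PPZ plus BL, 216.6, 207.04 and 191.07 in PPZ, 219.57, 213.42 and 208.35 in BL, and 263.03, 361.23 and 577.08 in mock. All 9 treated libraries lay below the lowest mock library, with the same exact p of 0.1 for each treatment. The mock libraries themselves were far apart, with SDs of 5.62 FPKM in BL and 160.7 in mock, and mock library 3 was the highest of the mock libraries for 34 of 49 HSP20s. Without Glyma.12G013100, the HSP20 with the highest level, the sum was still 164.954 to 187.009 in PPZ plus BL, 171.246 to 186.247 in PPZ and 177.813 to 180.24 in BL, against 213.997 to 436.178 in mock. Among the marker lists, globins and Casparian strip genes, like the HSF sum, had their highest summed FPKM in PPZ. Rubisco small subunit genes, like the HSP20 sum, were highest in mock, whereas the root cap and chlorophyll a/b binding lists took other orders. Globins summed to 387.11 to 536.06 FPKM in PPZ plus BL, 929.11 to 1038.2 in PPZ, 420.59 to 579.13 in BL and 683.47 to 895.96 in mock. Rubisco small subunit genes summed to 162.47 to 201.06 in PPZ plus BL, 154.43 to 210.73 in PPZ, 150.51 to 167.85 in BL and 332.63 to 414.15 in mock. Chlorophyll a/b binding genes summed to 338.4 to 488.27 in PPZ plus BL, 136.52 to 185.23 in PPZ, 282.45 to 374.19 in BL and 124.68 to 237.82 in mock. Casparian strip genes summed to 836.92 to 1062.87 in PPZ plus BL, 1067.74 to 1129.64 in PPZ, 792.08 to 968.24 in BL and 506.35 to 776.78 in mock, where every treated library was above mock. Their part in the results was not tested.

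**Figure D1:**
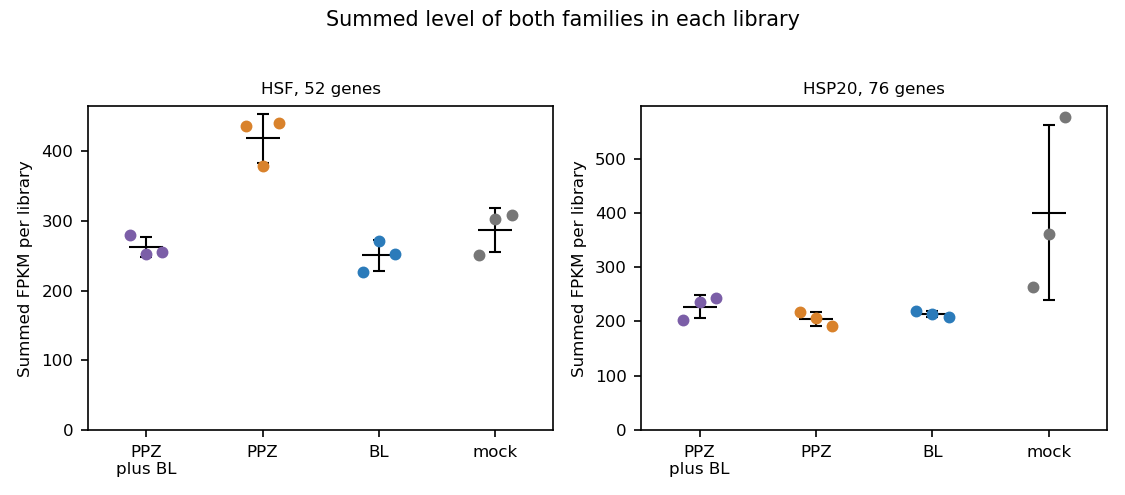
Summed FPKM (linear axis) of the 52 HSFs (left) and the 76 HSP20s (right) in each of the 12 libraries by group. Points are libraries, and bars are the mean ± SD of 3 libraries. The HSF sum was 418.6 ± 34.8 in PPZ against 287.6 ± 31.6 in mock, and the HSP20 sum was 213.8 ± 5.62 in BL against 400.4 ± 160.7 in mock.

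Tests were made on counts with edgeR's quasi-likelihood test. A gene passed the test when its p, adjusted over all genes tested (Benjamini-Hochberg), was no more than 0.01, and it was called when its fold change was also at least 3. In at least 1 comparison 97 members had enough counts to be tested, 47 HSFs and 50 HSP20s, and 34 of them, 17 in each family, were called in some comparison, beside 18.3% of all 36961 genes tested in any. A gene could have enough counts through 1 group alone, and could then only be called higher in that group.

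PPZ against mock asked how the families differ under PPZ, which the study used to lower brassinosteroids. Of 47 HSFs tested, 4 were called higher and 4 lower, beside 9.14% of all 35673 genes (6.33% higher and 2.81% lower). The median log2 fold change was 0.35 for HSFs and 0.003 for all genes. Without the fold threshold 8 HSFs rose and 6 fell, 29.8% beside 19.6% of all genes (11.3% and 8.25%). In 18 HSFs all PPZ libraries lay above all mock libraries and in 12 below, beside 28.9% and 25.9% of all genes. Of both families together 21 members were called. That number was 6 without PPZ 1, 5 without PPZ 2, 10 without PPZ 3, 27 without mock 1, 11 without mock 2 and 15 without mock 3, while the share of all genes called moved between 4.46% and 12.3%.

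For 3 of the 4 HSFs called higher in PPZ, no library of the other groups exceeded 3.43 FPKM. Glyma.13G180200 (HSF-27, chr13:28785948-28788489) had 0.149, 0.315 and 0.429 FPKM in PPZ plus BL, 13.2, 7.33 and 6.72 in PPZ, 0, 1.79 and 1.01 in BL, and 0.147, 0.459 and 0.555 in mock. The lowest PPZ library of this gene was thus above every library of the other groups. Its log2 fold change was 4.50 ± 0.46 (SE) for PPZ against mock (adjusted p = 0.000829) and -4.88 ± 0.41 for PPZ plus BL against PPZ (adjusted p = 0.000132). Glyma.01G143500 (chr1:48818524-48821568) had 0.878, 2.48 and 2.94 FPKM in PPZ plus BL, 20.5, 15.8 and 12.1 in PPZ, 1.43, 3.11 and 2.89 in BL, and 1.63, 1.80 and 3.43 in mock. PPZ plus BL, BL and mock overlapped for this gene, and PPZ stood apart, by 2.80 ± 0.32 on the log2 scale against mock (adjusted p = 0.00116). Glyma.17G053700 (chr17:4090934-4094757) was weakly expressed, with 0.0158, 0.0502 and 0 FPKM in PPZ plus BL, 1.09, 0.623 and 0.75 in PPZ, 0, 0.0259 and 0.0161 in BL, and 0.0624, 0.0813 and 0.114 in mock. Its log2 fold change for PPZ against mock was 3.20 ± 0.38 (adjusted p = 0.00122). These 3 genes passed the test against mock whichever of the 6 libraries was left out.

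Glyma.19G137800 (HSF-36, chr19:40367744-40370452) was the most abundant of the 4. It had 4.61, 5.54 and 6.38 FPKM in PPZ plus BL, 45.2, 51.9 and 80.4 in PPZ, 2.41, 6.96 and 5.24 in BL, and 11.1, 16.0 and 26.6 in mock. The 4 groups formed 3 levels without overlap, PPZ above mock and mock above both BL and PPZ plus BL, which overlapped each other. The log2 fold change was 1.72 ± 0.35 for PPZ against mock (adjusted p = 0.00815), -1.68 ± 0.32 for PPZ plus BL against mock (adjusted p = 0.00795) and -1.86 ± 0.44 for BL against mock, which did not pass (adjusted p = 0.0141). The 2 calls against mock were the less stable ones, passing in 2 and in 1 of the 6 fits that left out a library (log2 fold changes of 1.44 to 2.10 and of -1.93 to -1.27). PPZ plus BL differed from PPZ by -3.41 ± 0.24 on the log2 scale (adjusted p = 7.19e-05), and this call was kept in all 6 such fits.

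**Figure D2:**
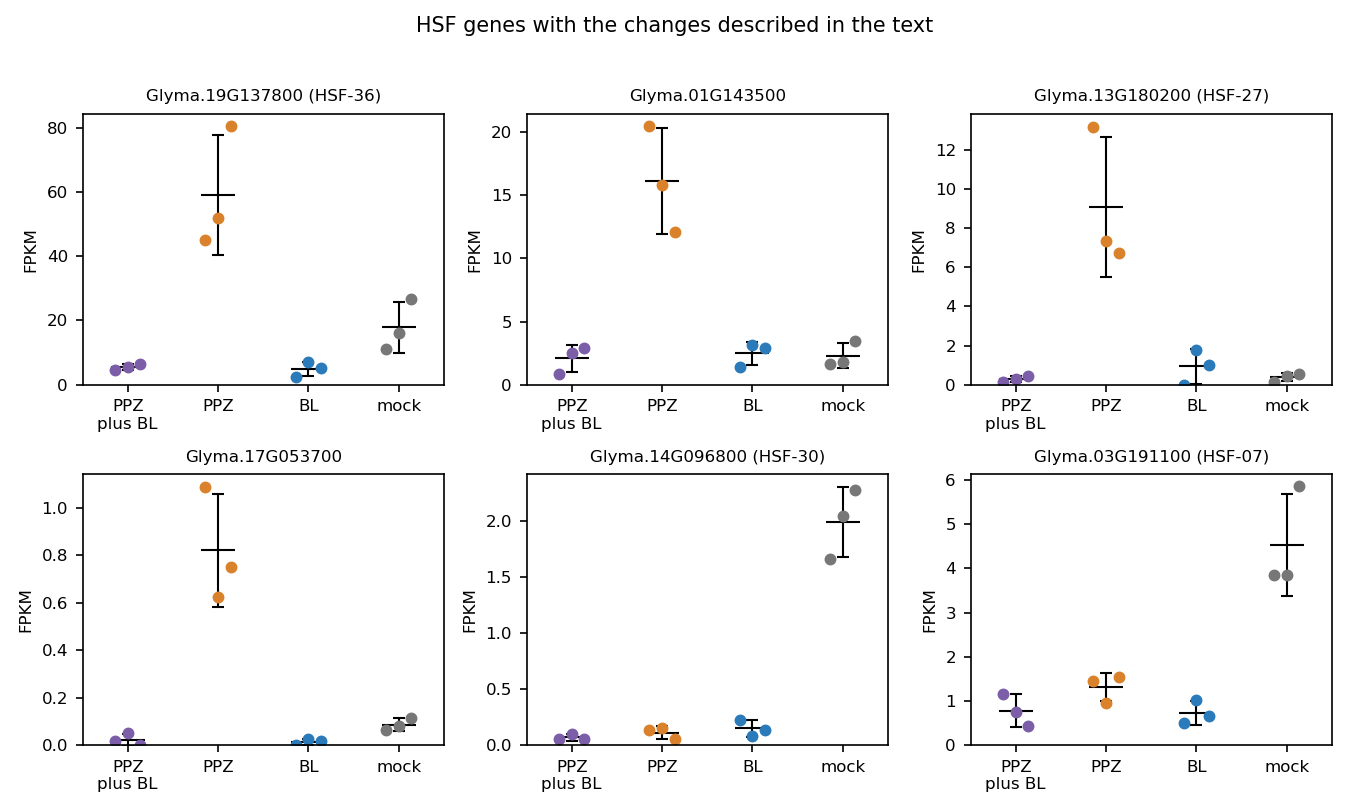
FPKM (linear axes, each from 0) of 6 HSF genes in each of the 12 libraries by group. Points are libraries, and bars are the mean ± SD of 3 libraries. The first 4 genes were highest in PPZ, for example 59.2 ± 18.7 in PPZ against 17.9 ± 7.95 in mock for Glyma.19G137800, and the last 2, Glyma.14G096800 and Glyma.03G191100, were highest in mock.

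Another 4 HSFs rose in PPZ by less than 3-fold. Glyma.08G119900 had 5.96, 5.56 and 4.76 FPKM in PPZ plus BL, 10.1, 9.48 and 9.69 in PPZ, 4.57, 4.99 and 6.80 in BL, and 4.82, 4.19 and 4.55 in mock. It differed by 1.10 ± 0.12 on the log2 scale between PPZ and mock (adjusted p = 0.000889) and passed in every fit that left out a library. Glyma.01G185800, the HSF with the fourth highest level, had 15.3, 8.64 and 11.3 FPKM in PPZ plus BL, 37.9, 28.9 and 29.3 in PPZ, 12.8, 24.5 and 24.9 in BL, and 7.08, 14.7 and 10.45 in mock. BL was here between PPZ and mock and overlapped mock, and the log2 fold change of PPZ against mock was 1.56 ± 0.26 (adjusted p = 0.00418, passing in 2 of 6 fits). Glyma.08G047400 (chr8:3704999-3708489) had 2.80, 2.24 and 2.66 FPKM in PPZ plus BL, 11.5, 9.62 and 8.19 in PPZ, 2.40, 2.97 and 3.20 in BL, and 5.81, 5.46 and 5.36 in mock. Its groups took the same order as those of Glyma.19G137800, and all of PPZ against mock (0.81 ± 0.15, adjusted p = 0.00609), BL against mock (-0.95 ± 0.15, adjusted p = 0.0035) and PPZ plus BL against mock (-1.09 ± 0.15, adjusted p = 0.0027) passed the test. With a library left out they passed in 2, 2 and 3 of 6 fits. The last of the 4, Glyma.05G162300 (HSF-11), was named after its values were seen and rose by 0.73 ± 0.13 on the log2 scale (adjusted p = 0.00551).

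Of the 4 HSFs called lower in PPZ, Glyma.14G096800 (HSF-30, chr14:9357945-9361722) had the largest difference. It had 0.0517, 0.103 and 0.0497 FPKM in PPZ plus BL, 0.131, 0.153 and 0.05 in PPZ, 0.226, 0.0848 and 0.131 in BL, and 1.66, 2.05 and 2.27 in mock. All 9 treated libraries lay below the lowest mock library. Treated libraries held few counts of this gene, 2, 5 and 2 in PPZ plus BL, 5, 6 and 2 in PPZ and 11, 4 and 5 in BL. Mock held 65, 77 and 110. The log2 fold changes against mock were -4.75 ± 0.37 in PPZ plus BL (adjusted p = 0.000489), -4.14 ± 0.38 in PPZ (adjusted p = 0.000613) and -3.71 ± 0.36 in BL (adjusted p = 0.000976), and each passed whichever library was left out. Glyma.03G191100 (HSF-07, chr3:41360847-41363183) had 1.16, 0.746 and 0.422 FPKM in PPZ plus BL, 1.46, 0.957 and 1.55 in PPZ, 0.499, 1.03 and 0.668 in BL, and 3.86, 3.86 and 5.86 in mock. It too was highest in mock without overlap, with log2 fold changes of -2.53 ± 0.37 in PPZ plus BL, -1.79 ± 0.27 in PPZ and -2.61 ± 0.32 in BL, which passed in 3, 4 and 5 of the 6 fits that left out a library. These comparisons share the mock libraries, so a high or low mock value enters each of them. The other two, Glyma.09G190600 (HSF-16) and Glyma.19G159500, were lowest in PPZ. Glyma.09G190600 had 1.57, 2.20 and 1.83 FPKM in PPZ plus BL, 0.377, 0.612 and 0.882 in PPZ, 1.85, 1.46 and 1.22 in BL, and 2.45, 5.75 and 4.67 in mock (-2.78 ± 0.43 for PPZ against mock, adjusted p = 0.00306, passing in 3 of 6 fits that left out a library). Glyma.19G159500 had 0.963, 0.651 and 0.532 FPKM in PPZ plus BL, 0.249, 0.242 and 0.179 in PPZ, 0.636, 0.974 and 0.624 in BL, and 0.667, 0.695 and 0.656 in mock (-1.59 ± 0.28, adjusted p = 0.00527, passing in 1 of 6).

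BL against mock asked how the families respond to added brassinosteroid. Among 46 HSFs tested, 1 was called higher and 3 lower, 8.7% beside 7.98% of all genes (4.72% higher and 3.26% lower), and 21.7% passed without the fold threshold (2 higher and 8 lower) beside 21.5% of all genes (10.9% and 10.6%). BL and mock did not overlap in 11 HSFs that were higher in BL and 14 that were lower, beside 28.3% of all genes in each direction. The HSFs thus differed between BL and mock about as often as genes at large, with a median log2 fold change of -0.09. The gene called higher was Glyma.07G235600, with 2.05, 1.65 and 1.90 FPKM in BL against 0.836, 0.435 and 0.339 in mock (1.81 ± 0.36, adjusted p = 0.00781). The genes called lower were Glyma.14G096800 and Glyma.03G191100 (above) and Glyma.04G052000 (HSF-08), with 0.284, 0.355 and 0.155 FPKM in BL against 0.854, 1.07 and 0.774 in mock (-1.72 ± 0.36, adjusted p = 0.00884). The calls of Glyma.07G235600 and Glyma.04G052000 each passed in 1 of 6 fits that left out a library. Among HSFs that fell by less than 3-fold, Glyma.10G237800 (HSF-19) had 6.20, 6.03 and 5.03 FPKM in BL against 12.9, 18.5 and 15.5 in mock (-1.43 ± 0.17, adjusted p = 0.00153, passing in 5 of 6), and Glyma.01G233000 (HSF-04) had 8.41, 9.53 and 8.96 FPKM in BL against 14.2, 17.7 and 18.2 in mock (-0.88 ± 0.13, adjusted p = 0.00261, passing in 2 of 6). Both families together had 12 members called. That number was 2 without BL 1, 2 without BL 2, 1 without BL 3, 24 without mock 1, 6 without mock 2 and 7 without mock 3, while the share of all genes called moved between 2.59% and 12.6%.

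PPZ plus BL against mock called 1 HSF higher and 4 lower of 45 tested, 11.1% beside 6.84% of all genes (3.84% higher and 3.0% lower). Without the fold threshold 2 rose and 6 fell, beside 6.95% and 7.24% of all genes. The libraries of PPZ plus BL and mock did not overlap in 9 HSFs that were higher and 14 that were lower in PPZ plus BL, beside 25.0% and 26.3% of all genes. The gene called higher, Glyma.14G036200, had 1.33, 1.92 and 2.07 FPKM in PPZ plus BL against 0.567, 0.156 and 0.17 in mock (2.60 ± 0.50, adjusted p = 0.00799, passing in 1 of 6 fits that left out a library). Beside Glyma.14G096800, Glyma.03G191100 and Glyma.19G137800, the gene called lower was Glyma.13G151200 (HSF-28). It had 1.93, 2.19 and 2.57 FPKM in PPZ plus BL, 4.83, 3.20 and 3.43 in PPZ, 4.12, 4.57 and 2.60 in BL, and 8.74, 15.6 and 9.503 in mock (-2.31 ± 0.27 for PPZ plus BL against mock, adjusted p = 0.00151, passing in 5 of 6 fits). Mock did not overlap any treated group for this gene. The HSF with the highest level, Glyma.17G174900 (HSF-35), went the other way, with 47.5, 39.2 and 33.9 FPKM in PPZ plus BL against 19.9, 23.4 and 22.4 in mock (0.89 ± 0.15, adjusted p = 0.00521, passing in 1 of 6 fits). The second highest, Glyma.16G196200 (HSF-32), had 23.7, 21.1 and 23.5 FPKM in PPZ plus BL, 31.3, 25.1 and 25.9 in PPZ, 21.8, 27.3 and 22.6 in BL, and 24.1, 34.7 and 31.9 in mock, and it passed in no comparison. Both families together had 15 members called. That number was 3 without PPZ plus BL 1, 1 without PPZ plus BL 2, 2 without PPZ plus BL 3, 22 without mock 1, 6 without mock 2 and 9 without mock 3, while the share of all genes called moved between 1.8% and 11.9%.

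The comparison of PPZ plus BL with PPZ asked what differs when BL is given besides PPZ, with 2 days of PPZ in PPZ plus BL and 2.5 days in PPZ. Of 46 HSFs tested, 3 were called higher and 6 lower, 19.6% beside 7.73% of all genes (2.15% higher and 5.58% lower). Without the fold threshold 6 rose and 14 fell, 43.5% beside 19.5% of all genes (8.0% and 11.5%), and the median log2 fold change was -0.25 beside 0.013 for all genes. Among those called lower, Glyma.17G053700 differed by -4.99 ± 0.58 (adjusted p = 0.000541), Glyma.01G143500 by -2.91 ± 0.37 (adjusted p = 0.000794) and Glyma.08G047400 by -1.91 ± 0.16 (adjusted p = 0.000143), beside Glyma.13G180200 and Glyma.19G137800 given above. The remaining gene, Glyma.03G135800 (HSF-06), named after its values were seen, had 5.52, 4.19 and 4.78 FPKM in PPZ plus BL against 14.4, 16.8 and 32.3 in PPZ (-2.12 ± 0.31, adjusted p = 0.00151). Each of these 6 genes was lower in all 3 PPZ plus BL libraries than in any PPZ library, as were 18 HSFs in all, beside 25.9% of all genes, and 9 HSFs were higher without overlap, beside 23.2%. The 3 called higher were Glyma.09G190600 (1.59 ± 0.33, adjusted p = 0.00767), Glyma.19G159500 (1.69 ± 0.34, adjusted p = 0.0069) and Glyma.10G029600 (HSF-21), which had 1.33, 0.981 and 0.709 FPKM in PPZ plus BL against 0.264, 0.375 and 0.207 in PPZ (1.84 ± 0.36, adjusted p = 0.00571). These 3 passed in 2, 1 and 1 of the 6 fits that left out a library, whereas Glyma.13G180200, Glyma.17G053700, Glyma.19G137800, Glyma.01G143500 and Glyma.08G047400 passed in all 6. For both families together 12 members were called, and 8 to 12 with a library left out.

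PPZ against BL compared the treatments directly, over 2.5 and 0.5 days. Here 7 HSFs were called higher and 3 lower of 46 tested, 21.7% beside 6.82% of all genes (4.82% higher and 2.0% lower), and 13 rose and 5 fell without the fold threshold, beside 13.5% and 13.0% of all genes. In 21 HSFs all PPZ libraries lay above all BL libraries and in 9 below, beside 29.4% and 28.3% of all genes. Glyma.19G137800 differed by 3.59 ± 0.38 (adjusted p = 0.000438), Glyma.01G143500 by 2.70 ± 0.31 (adjusted p = 0.000545) and Glyma.08G047400 by 1.77 ± 0.17 (adjusted p = 0.000307). Glyma.13G180200 differed by 3.27 ± 0.73 (adjusted p = 0.00845) but passed in 1 of 6 fits that left out a library, its BL libraries ranging from 0 to 1.79 FPKM. For Glyma.17G053700 the counts were 157 in PPZ against 3 in BL, a 58.8-fold ratio after scaling with a 95% interval of 19.8 to 288 that covers counting error only. In the other direction Glyma.17G241300 had 0.898, 1.52 and 1.01 FPKM in PPZ against 5.26, 5.10 and 5.81 in BL (-2.24 ± 0.22, adjusted p = 0.000325), and Glyma.07G235600 had 0.464, 0.626 and 0.649 FPKM in PPZ against 2.05, 1.65 and 1.90 in BL (-1.69 ± 0.23, adjusted p = 0.00116). Both passed in all 6 such fits. The remaining gene, Glyma.19G159500, was also called lower (-1.75 ± 0.31, adjusted p = 0.00339, passing in 3 of 6).

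**Figure D3:**
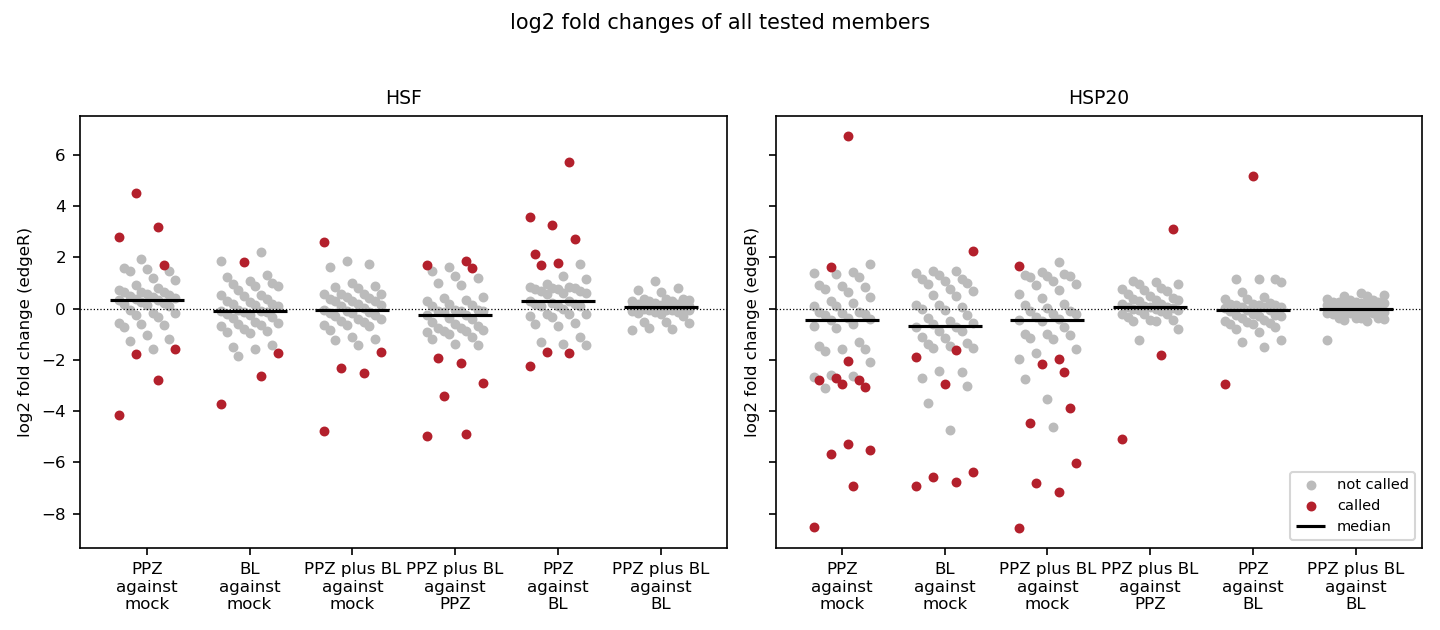
The log2 fold changes from edgeR of all tested HSFs (left) and HSP20s (right) in the 6 comparisons, the group named first over the group named second. Each point is a gene, red points were called (adjusted p of 0.01 or less and at least 3-fold), and black lines are medians. HSFs spread in both directions, with medians of 0.35 for PPZ against mock and -0.25 for PPZ plus BL against PPZ, whereas most called HSP20s lay below 0 in the 3 comparisons with mock.

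Most HSP20s called against mock were lower, under each treatment. In PPZ, 2 were called higher and 11 lower of 49 tested, 26.5% beside 9.14% of all genes. In BL, 1 was called higher and 7 lower of 48, 16.7% beside 7.98%, and in PPZ plus BL 1 was called higher and 9 lower of 46, 21.7% beside 6.84%. Some of these, such as Glyma.08G068800 and Glyma.07G200700, had enough counts only through mock and could only be called lower. Glyma.03G073722 had enough only through PPZ and could only be called higher there. Without the low-count filter 73 HSP20s were tested. Of these, 2 were called higher and 12 lower in PPZ, 1 and 7 in BL, and 1 and 11 in PPZ plus BL. Without the fold threshold 30.6% passed in PPZ (3 higher and 12 lower), beside 19.6% of all genes. In BL 25.0% passed (3 higher and 9 lower), close to the 21.5% of all genes. In PPZ plus BL 28.3% passed (3 higher and 10 lower), beside 14.2%. The median log2 fold changes were -0.45 in PPZ, -0.66 in BL and -0.425 in PPZ plus BL, and the medians of all genes were 0.003, 0.01 and 0.011. These comparisons share the mock libraries, whose HSP20 sums spread widely, and the counts moved with the libraries kept. In BL no HSP20 was called once any BL library was left out. In PPZ, the numbers called lower were 1, 0 and 2 without PPZ 1, 2 and 3, and in PPZ plus BL none was called without any 1 of its libraries. Without mock 1, 13 were called lower in PPZ, 14 in BL and 14 in PPZ plus BL. The medians stayed below 0 in each of these fits, from -0.86 to -0.29.

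The HSP20 with the highest level, Glyma.12G013100 (HSP23.9), had 37.6, 53.3 and 56.2 FPKM in PPZ plus BL, 30.3, 21.1 and 19.8 in PPZ, 41.8, 33.2 and 30.2 in BL, and 49.0, 104 and 141 in mock. It was lowest in PPZ and highest in mock, and PPZ plus BL overlapped mock. The log2 fold change was -2.05 ± 0.37 for PPZ against mock (adjusted p = 0.00556, passing in 1 of 6 fits that left out a library), -1.46 ± 0.35 for BL against mock (adjusted p = 0.0152) and 1.06 ± 0.20 for PPZ plus BL against PPZ (adjusted p = 0.00488, passing in 2 of 6). Glyma.07G200200, in the group of 6 neighbours on chromosome 7 (chr7:37190139-37229272), had 3.31, 4.49 and 6.61 FPKM in PPZ plus BL, 4.42, 2.93 and 1.53 in PPZ, 4.30, 5.03 and 6.12 in BL, and 11.8, 18.8 and 26.5 in mock. Every treated library lay below every mock library, with log2 fold changes of -1.97 ± 0.35 in PPZ plus BL, -2.69 ± 0.42 in PPZ and -1.88 ± 0.29 in BL, which passed in 1, 4 and 2 of the 6 fits that left out a library. Glyma.06G157800 had 1.17, 0.983 and 1.32 FPKM in PPZ plus BL, 1.11, 1.08 and 0.599 in PPZ, 0.821, 1.13 and 0.489 in BL, and 4.48, 5.23 and 9.57 in mock, with log2 fold changes against mock of -2.45 ± 0.36, -2.79 ± 0.40 and -2.94 ± 0.42 in the same order, passing in 2, 3 and 3 of 6 such fits. Glyma.13G176300, the second highest HSP20, was called only in BL (-1.61 ± 0.34, adjusted p = 0.00989, passing in 2 of 6), with 7.35, 13.7 and 14.5 FPKM in PPZ plus BL, 24.1, 15.1 and 9.39 in PPZ, 15.4, 16.9 and 14.2 in BL, and 27.4, 39.9 and 75.8 in mock. Its values in PPZ (-1.57 ± 0.44, adjusted p = 0.0274) and PPZ plus BL (-1.98 ± 0.41, adjusted p = 0.0108) were close to that in BL, and the treated groups did not differ by the test (adjusted p of 0.39 to 0.909 in the 3 comparisons among them).

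Several HSP20s that were expressed in mock were at or near 0 counts in the treated groups. The 3 neighbours on chromosome 8 (chr8:5273817-5282763) summed to 0.241, 0.39 and 0.466 FPKM in PPZ plus BL, 1.593, 1.191 and 1.03 in PPZ, 0.54, 0.8 and 0.88 in BL, and 7.546, 10.872 and 39.795 in mock. Mock library 3 was the highest by far, but the lowest mock library was still above all treated libraries. Among them Glyma.08G068800 (HSP6834-A) had counts of 1, 1 and 2 in PPZ plus BL, 6, 5 and 0 in PPZ, 1, 3 and 1 in BL, and 65, 113 and 484 in mock, with log2 fold changes of -7.14 ± 0.98, -5.66 ± 0.97 and -6.91 ± 0.97 against mock in the same order, passing in 3, 2 and 3 of 6 fits that left out a library. Its neighbour Glyma.08G068700 had counts of 0, 0 and 2 in PPZ plus BL, 2, 1 and 3 in PPZ, 0, 3 and 0 in BL, and 20, 48 and 219 in mock. The ratio was 144-fold lower in PPZ plus BL (95% interval 39.5 to 1190) and 102-fold lower in BL (34.4 to 495), each call passing in 2 of 6 such fits, with intervals that cover counting error only and not the spread between libraries. Glyma.08G068700 also passed in PPZ against mock, and again in 2 of 6 such fits (log2 fold changes of -5.79 to -4.07). The third neighbour, Glyma.08G069000 (HSP17.3-B), kept some signal, with 0.187, 0.347 and 0.24 FPKM in PPZ plus BL, 1.14, 0.862 and 0.847 in PPZ, 0.497, 0.512 and 0.825 in BL, and 2.83, 1.48 and 7.79 in mock, and it was called lower in PPZ plus BL against mock (-3.89 ± 0.72, adjusted p = 0.00716, passing in 3 of 6) and against PPZ (-1.80 ± 0.38, adjusted p = 0.0081, passing in no fit that left out a library).

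Among the HSP20s named here, low counts in the treated groups also occurred at 3 other places, and HSP20s not named here had them too. Glyma.07G200700, in the chromosome 7 group, had no count in PPZ plus BL or PPZ, counts of 1, 0 and 0 in BL, and 41, 17 and 89 in mock. With a floor of 3 counts per library it was at least 16.4-fold lower in PPZ plus BL and at least 15.4-fold lower in PPZ. Glyma.08G212000 (chr8:17190079-17192082) had counts of 0, 3 and 0 in PPZ plus BL, 3, 1 and 0 in PPZ, 2, 0 and 0 in BL, and 50, 18 and 162 in mock, and was called lower in each treatment (adjusted p of 0.00692, 0.00617 and 0.00457 in that order). Glyma.14G063800 had counts of 1, 4 and 7 in PPZ plus BL, 1, 0 and 1 in PPZ, 10, 1 and 1 in BL, and 24, 39 and 270 in mock. It was called only in PPZ, where the ratio was 157-fold lower (95% interval 43.2 to 1300, counting error only). In each of these genes the treated and mock libraries did not overlap, and each call against mock was lost in 3 or 4 of the 6 fits that left out a library, always including the 3 that left out a treated one.

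A few HSP20s rose, or differed among the treated groups. Glyma.09G165300 had 5.32, 5.42 and 6.57 FPKM in PPZ plus BL, 5.70, 6.85 and 5.21 in PPZ, 6.13, 5.65 and 4.96 in BL, and 2.04, 2.06 and 2.35 in mock. It rose by less than 3-fold, with log2 fold changes of 1.44 ± 0.21, 1.45 ± 0.21 and 1.39 ± 0.20 in the same order (passing in 3, 3 and 2 of 6 fits), and its mock libraries were close together. Glyma.05G029500 was called higher in PPZ plus BL (1.66 ± 0.31, adjusted p = 0.00743) and PPZ (1.64 ± 0.30, adjusted p = 0.00609), with 2.25, 2.72 and 2.11 FPKM in PPZ plus BL, 2.21, 2.71 and 2.23 in PPZ, 1.97, 1.75 and 2.57 in BL, and 0.886, 0.519 and 0.853 in mock. Glyma.10G106800 was called higher in BL, with 2.25, 2.09 and 1.66 FPKM in BL against 0.536, 0.223 and 0.478 in mock (2.26 ± 0.36, adjusted p = 0.00366). Both of the last genes passed in 1 of 6 fits that left out a library. Glyma.03G073722 (chr3:17799025-17799730) was highest in PPZ, with counts of 3, 1 and 0 in PPZ plus BL, 32, 32 and 76 in PPZ, 4, 0 and 0 in BL, and 0, 0 and 1 in mock. Its ratio in PPZ against mock was 148-fold (95% interval 26.2 to 5900, counting error only), and it differed by -5.09 ± 0.72 between PPZ plus BL and PPZ (adjusted p = 0.00129). These calls held whichever library was left out. Glyma.06G134900 was instead lowest in PPZ, with 2.96, 1.81 and 1.59 FPKM in PPZ plus BL, 0.403, 0.168 and 0.165 in PPZ, 1.04, 2.19 and 2.49 in BL, and 1.57, 1.23 and 2.96 in mock. Its log2 fold change was 3.10 ± 0.46 for PPZ plus BL against PPZ (adjusted p = 0.00162, passing in all 6 fits), -2.94 ± 0.51 for PPZ against BL (adjusted p = 0.00291, passing in 3 of 6) and -2.96 ± 0.53 for PPZ against mock (adjusted p = 0.00517, passing in 1 of 6).

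**Figure D4:**
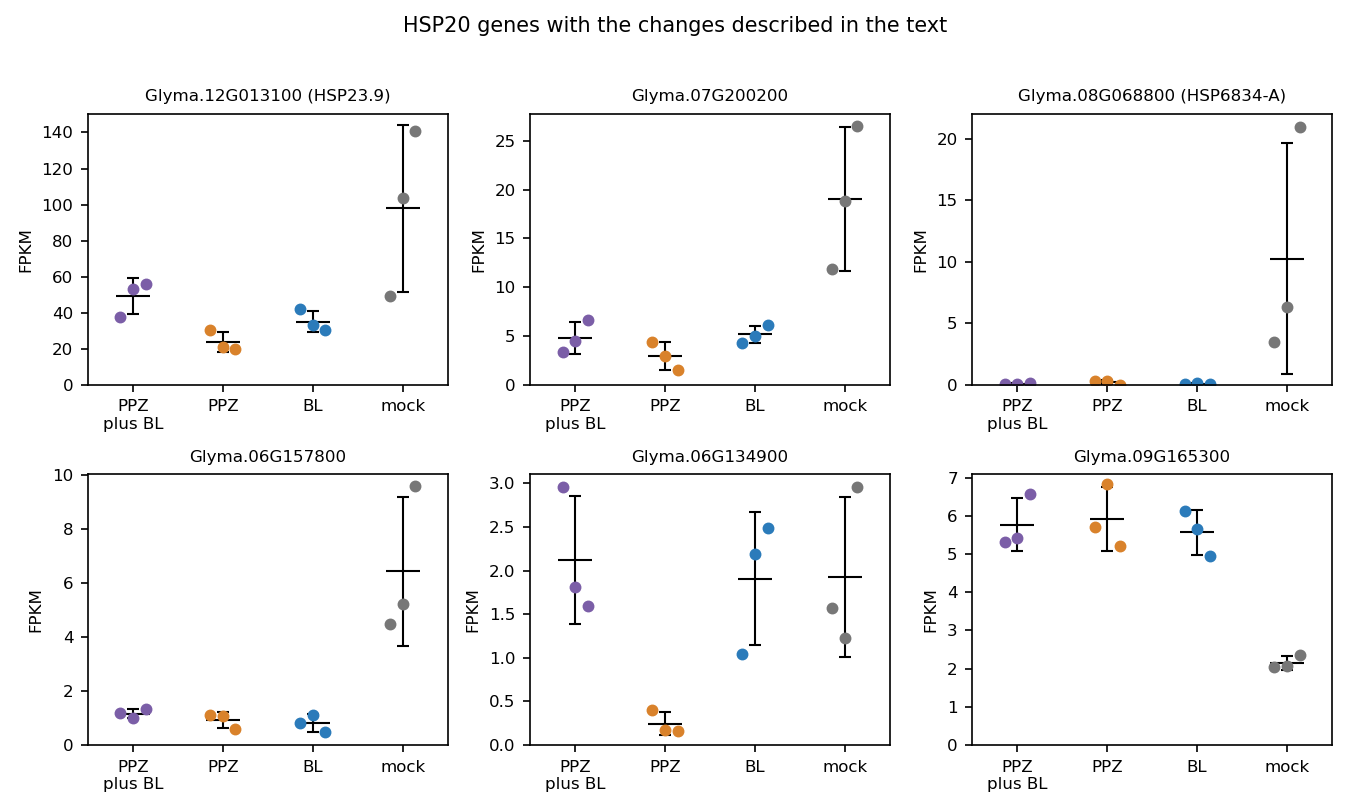
FPKM (linear axes, each from 0) of 6 HSP20 genes in each of the 12 libraries by group. Points are libraries, and bars are the mean ± SD of 3 libraries. The first 4 genes were highest in mock with widely spread mock libraries (23.8 ± 5.74 in PPZ against 97.8 ± 46.2 in mock for Glyma.12G013100), Glyma.06G134900 was lowest in PPZ, and Glyma.09G165300 was lowest in mock.

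PPZ plus BL against PPZ and PPZ against BL compared the treated groups. PPZ plus BL against PPZ called 1 higher and 2 lower of 40 tested, 7.5% beside 7.73% of all genes, and PPZ against BL called 1 higher and 1 lower of 41, 4.88% beside 6.82%, so neither share was above that of all genes. The abundant genes Glyma.11G134200 and Glyma.13G286300 passed in no comparison. Glyma.11G134200 had 25.1, 20.2 and 19.3 FPKM in PPZ plus BL, 20.8, 24.8 and 24.1 in PPZ, 18.0, 19.5 and 24.6 in BL, and 26.2, 24.0 and 25.0 in mock. Glyma.13G286300 had 22.6, 23.8 and 20.7 FPKM in PPZ plus BL, 13.8, 19.3 and 21.8 in PPZ, 19.3, 18.2 and 18.2 in BL, and 11.7, 19.5 and 20.1 in mock. Glyma.12G058200 was higher in PPZ, at 18.7, 18.7 and 16.998 FPKM, than in BL, at 13.1, 13.8 and 12.4 (0.46 ± 0.11, adjusted p = 0.00978), and passed in no fit that left out a library.

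PPZ plus BL against BL asked whether BL seedlings also given PPZ differ from those that were not. No HSF of 44 and no HSP20 of 38 passed edgeR's test, beside 0.00565% of all genes (0.00282% in each direction). At an unadjusted p under 0.05 there were 11 HSFs and 5 HSP20s, 25.0% and 13.2%, beside 21.8% of all genes. DESeq2 called none either, though 1 HSF passed its adjusted p. The log2 fold changes lay between -0.82 and 1.09 for HSFs and between -1.23 and 0.62 for HSP20s, with medians of 0.06 and -0.01.

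The interaction, the difference of PPZ plus BL from PPZ minus that of BL from mock, which carries the same differences in duration, passed the test for 9 of 47 HSFs and 9 of 50 HSP20s. Together this is 18.6%, beside 17.4% of all genes (7.73% higher and 9.69% lower), so the members passed about as often as genes at large. The estimate was -6.09 ± 1.20 on the log2 scale for Glyma.13G180200 (adjusted p = 0.00312) and -3.00 ± 0.60 for Glyma.01G143500 (adjusted p = 0.00341). For Glyma.13G180200 the difference with BL was -4.88 with PPZ and 1.24 ± 1.07 without it, and for Glyma.01G143500 it was -2.91 with PPZ and 0.12 ± 0.39 without it. The interaction was 3.28 ± 0.55 for Glyma.06G157800 (adjusted p = 0.00139) and 3.10 ± 0.50 for Glyma.09G190600 (adjusted p = 0.00112). For Glyma.06G157800 PPZ plus BL and PPZ overlapped, and the difference with BL without PPZ was -2.94 ± 0.42. For Glyma.09G190600 all PPZ plus BL libraries lay above PPZ. Its difference with BL without PPZ was -1.48 ± 0.34, which did not pass (edgeR, adjusted p = 0.0133).

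Other genes of the heat shock response and of protein folding were taken by Pfam domain. In PPZ against BL, 12 of 13 genes of HSP90, an ATP-driven chaperone of kinases and receptors, fell and none rose, with a median log2 fold change of -1.16. HSP90 genes summed to 778.59, 1007.5 and 1015.94 FPKM in PPZ plus BL, 467.7, 491.73 and 539.67 in PPZ, 1129.8, 991.13 and 959.55 in BL, and 610.62, 600.12 and 576.43 in mock. BL and PPZ plus BL were above mock and PPZ below it, without overlap, which is another order than that of either family above. Against mock 6 of 13 HSP90 genes rose in BL, 2 fell in PPZ and 1 rose in PPZ plus BL, and 6 rose in PPZ plus BL against PPZ. None of these rises reached 3-fold. HSP70 genes, which bind and fold new and unfolded proteins, behaved likewise, with 17 of 38 lower in PPZ against BL and none higher, and 13 higher and 1 lower of 38 in PPZ plus BL against PPZ. Of chaperonin 60 genes, which form folding chambers, 22 of 42 rose and 2 fell in BL against mock, 27 of 42 fell in PPZ against BL, and none of 41 passed in PPZ plus BL against mock. All 5 chaperonin 10 genes, the lids of these chambers, fell in PPZ against BL. For scale, 13.0% of all genes fell in PPZ against BL, 10.9% rose in BL against mock, 8.0% rose in PPZ plus BL against PPZ, and 8.25% fell in PPZ against mock. In BL against mock, 7 FKBP genes rose and 1 fell of 29, 1 BAG gene rose and 3 fell of 17, and 2 HSP100 genes fell of 17, beside 10.9% of all genes that rose and 10.6% that fell. Of DnaJ genes, cochaperones of HSP70, 9 rose and 22 fell of 158 in BL against mock. In PPZ against mock 19 of 159 rose and 12 fell, shares close to those of all genes (11.3% and 8.25%). No gene of MBF1, a coactivator of the heat response, passed in any comparison. The root cap genes were also highest in BL, as given above, and their part in these values was not tested.

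**Figure D5:**
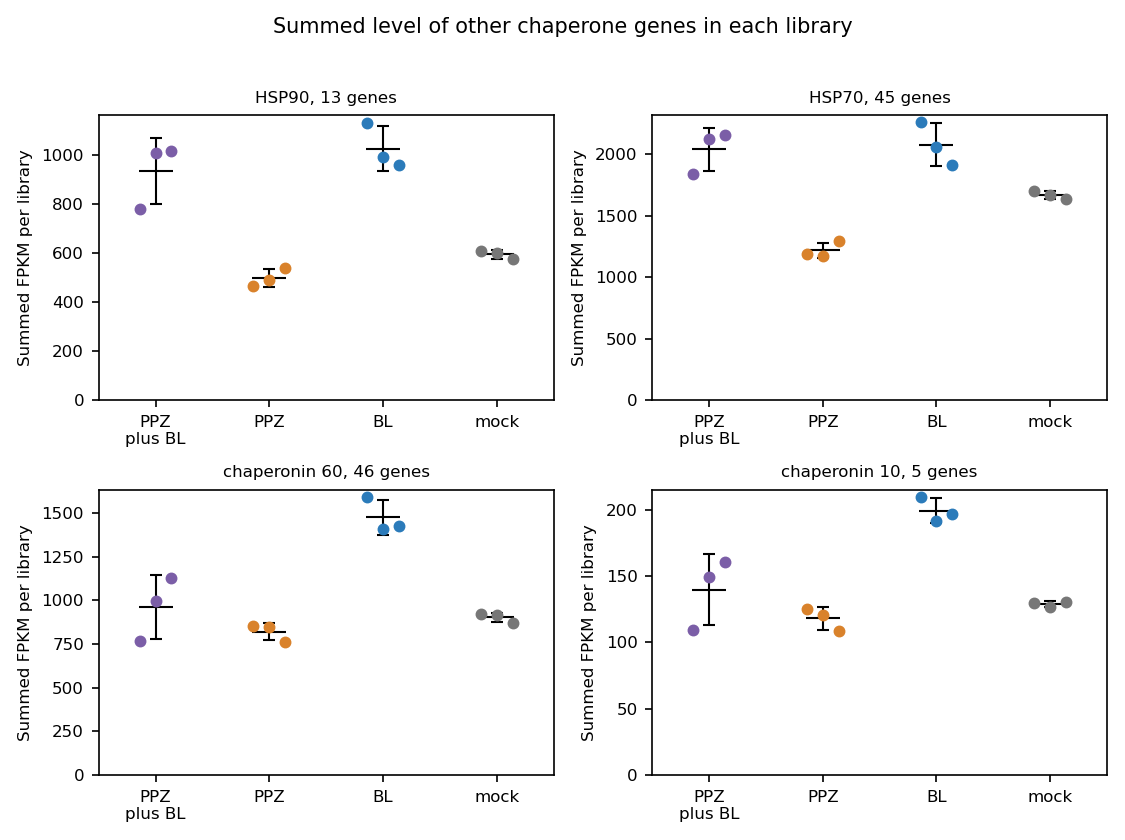
Summed FPKM (linear axes, each from 0) of the HSP90, HSP70, chaperonin 60 and chaperonin 10 genes in each of the 12 libraries by group. Points are libraries, and bars are the mean ± SD of 3 libraries. HSP90 summed to 499.7 ± 36.6 in PPZ against 1026.8 ± 90.6 in BL, and chaperonin 60 to 1475.3 ± 101.2 in BL against 902.2 ± 27.1 in mock.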

How the data were processed

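RNA-seq of 12 soybean root tip libraries was used, 3 each of PPZ plus BL, PPZ, BL and mock. Per the submitters' notes the authors aligned reads with HISAT2 2.0.5 and counted them per gene with featureCounts 1.5.0-p3. The deposited counts are not normalized, and use of strand is not given in the sources used here, so overlapping genes on both strands cannot be told apart. The deposited FPKM divide counts by gene length and a library constant, which followed the TMM effective library size and not the total count. The authors' columns of fold changes and p-values (DESeq2) were not used. Coordinates are those of the files (Wm82.a4.v1).

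Counts were fitted in R 4.3.3 with edgeR 4.0.16 (filterByExpr, TMM, glmQLFit, glmQLFTest), on the 6 libraries of each comparison, and on all 12 for the interaction. P-values were adjusted over all genes tested, and genes were called at 0.01 or less with at least a 3-fold change. Standard errors were derived from the fold change and the F statistic (absolute log2 fold change over its root). The fits were tested on simulated data. Replicates of a group held identical counts in at most 2.39% of genes. Gene symbols came from RefSeq (Glycine_max_v4.0) by position, with an overlap of at least 0.8. They were found for 34 HSFs and 9 HSP20s. Sequences were not used here.

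Named genes were, in each comparison and family, the 3 called members with the largest rise and the largest fall, the 5 with the highest level in each family, those passing the interaction, and the 3 with the smallest adjusted p for BL and PPZ against mock. The members and all lists were chosen with earlier results of these data known. As alternatives the fits were repeated with DESeq2 1.42.0, with its size factors in place of TMM, with unscaled library sizes, without the low-count filter, on 12 libraries at once, with replicate numbers as a block, without the fold threshold and without each library. Python 3.11.15 with pandas 2.3.3 and NumPy 2.4.6 made the tables, and Matplotlib 3.10.9 the figures.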

Additional observations from a re-analysis of the deposited data

Results flagged for a closer look

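For 18 members the difference with BL was not the same in seedlings given PPZ (PPZ plus BL against PPZ) and seedlings without it (BL against mock), by edgeR's test of the interaction at an adjusted p of 0.01 or less. Values are the first difference minus the second on the log2 scale. A gene at a similar level in all treated groups and at another in mock can also pass this test. For Glyma.09G165300 the treated groups overlapped, and its interaction mirrored its log2 fold change of 1.385 for BL against mock. Glyma.14G096800 held few counts in every treated group, so a further fall with BL in seedlings given PPZ could hardly be seen. Among HSFs the difference was negative for Glyma.13G180200 (-6.0912), Glyma.01G143500 (-3.0033), Glyma.01G185800 (-2.3695), Glyma.08G119900 (-1.0907) and Glyma.08G047400 (-0.9472). All 5 were highest in PPZ. It was positive for Glyma.14G096800 (3.0984), Glyma.09G190600 (3.0955), Glyma.10G029600 (2.0091) and Glyma.01G233000 (0.8517). Among HSP20s it was positive for Glyma.06G157800 (3.2839), Glyma.06G134900 (3.1338), Glyma.07G200200 (2.6135), Glyma.02G244300 (2.5968), Glyma.12G013100 (2.5463) and Glyma.13G205800 (1.5245), and negative for Glyma.10G106800 (-2.1809), Glyma.06G316200 (-1.5391) and Glyma.09G165300 (-1.3867). In this test Glyma.01G185800, Glyma.06G157800, Glyma.08G119900, Glyma.09G165300, Glyma.09G190600 and Glyma.12G013100 passed whichever of the 12 libraries was left out. Glyma.06G316200 passed in 1 and Glyma.02G244300 and Glyma.14G096800 in 2 of the 12 fits. The levels of 6 of these genes were not given above in all 4 groups. Glyma.02G244300 had 1.00, 2.45 and 1.45 FPKM in PPZ plus BL, 0.725, 1.06 and 0.624 in PPZ, 1.66, 2.00 and 2.04 in BL, and 2.47, 6.26 and 7.80 in mock. Glyma.13G205800 had 6.85, 5.39 and 4.06 FPKM in PPZ plus BL, 3.08, 4.23 and 5.36 in PPZ, 5.57, 5.85 and 5.70 in BL, and 12.97, 10.6 and 14.2 in mock. Glyma.06G316200 had 1.30, 1.97 and 1.46 FPKM in PPZ plus BL, 2.11, 2.59 and 2.06 in PPZ, 1.84, 1.51 and 1.90 in BL, and 1.07, 0.926 and 0.548 in mock. Glyma.01G233000 had 12.007, 9.21 and 10.3 FPKM in PPZ plus BL, 10.8, 10.52 and 11.7 in PPZ, 8.41, 9.53 and 8.96 in BL, and 14.2, 17.7 and 18.2 in mock. Glyma.10G106800 had 1.14, 1.51 and 1.78 FPKM in PPZ plus BL, 1.26, 1.55 and 1.47 in PPZ, 2.25, 2.09 and 1.66 in BL, and 0.536, 0.223 and 0.478 in mock. Glyma.10G029600 had 1.33, 0.981 and 0.709 FPKM in PPZ plus BL, 0.264, 0.375 and 0.207 in PPZ, 0.625, 0.701 and 0.483 in BL, and 0.633, 0.757 and 0.646 in mock. Mock was highest for Glyma.01G233000 and lowest for Glyma.10G106800, and PPZ was lowest for Glyma.10G029600.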

How the results depend on the processing

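Against mock the members called numbered 12 with BL, 21 with PPZ and 15 with PPZ plus BL. They numbered 12 in PPZ plus BL against PPZ, 12 in PPZ against BL and 0 in PPZ plus BL against BL, and 18 members passed the interaction. With DESeq2 there were 22 members for BL against mock, 32 for PPZ against mock and 26 for PPZ plus BL against mock. Without the fold threshold there were 22 in BL against mock, 26 in PPZ plus BL against PPZ and 24 in PPZ against BL, and in a fit of all 12 libraries 24 in PPZ plus BL against mock. Leaving out a library in turn gave 1 to 24 members for BL, 5 to 27 for PPZ and 1 to 22 for PPZ plus BL against mock, 8 to 12 in PPZ plus BL against PPZ, 8 to 12 in PPZ against BL, 0 in PPZ plus BL against BL and 8 to 23 for the interaction. The replicate numbers were not treated as pairs, since same-numbered libraries did not deviate together (correlations of -0.303 to 0.152). With the replicate number as a block there were 11 in PPZ and 7 in PPZ plus BL against mock and 11 for the interaction. Median-ratio size factors, library size alone and no filter on low counts left each number within 1.5 times, though library size alone was not run for the interaction. Of 110 values of named members, 2 no longer passed with DESeq2 and 50 with the block, and 330 of 768 fits with a library left out did not pass. No direction was reversed. Every fit with a library left out holds fewer samples. Those without mock 1 nevertheless called more members against mock, 24 with BL, 27 with PPZ and 22 with PPZ plus BL. No value of a named member stopped passing in them. The cause of these shifts was not tested. Genes at a few counts in treated libraries are limited by depth, so that a count of 0 allows up to 3.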
